A study of Mus musculus with 24 samples.

Results

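The 9 genes described here, Tnnt2, Tnni3, Tnnc1, Tpm1, Tpm2, Tpm3, Tpm4, Lmod2 and Tmod1, encode the troponin subunits and tropomyosins that lie along the actin filaments of the heart, and a pair of proteins that act at the filaments' pointed ends. They were picked by gene symbol from a read count table of 24015 genes, with earlier results of these data known. All 9 were found in it, and all 9 were among the 13816 genes that passed the filter on low counts.

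RNA was sequenced from the left ventricle of mice at 2, 4, 7 and 21 days after transverse aortic constriction (TAC, a surgical narrowing of the aorta that raises the pressure load on the left ventricle) or a sham operation. The groups were TAC day 2, TAC day 4, TAC day 7 and TAC day 21, each set against sham of the same day, with 3 libraries per group and 24 in all. The labels do not state strain, sex, age, the degree of constriction or whether a library came from 1 animal or a pool. Nothing in the labels says that the 3 libraries of a group came from separate animals, so that p-values measure the spread between libraries.

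The thin filament is a polymer of actin with tropomyosin coiled along it and a troponin complex bound at intervals. Troponin T ties the complex to tropomyosin, troponin I holds the filament off when calcium is low, and troponin C binds the calcium that releases it at each heartbeat. Tropomyosin genes can make several isoforms, of muscle or cytoskeletal kind, which a count per gene cannot separate. Tropomodulin and leiomodin set the length of the filament from its pointed end.

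Per library, 10.7 to 17.6 M reads (M, 1000000) had been assigned to genes, and the 9 genes took 1.64% to 2.66% of them. The median share was 2.09% in TAC libraries and 2.37% in sham libraries. For each library, the difference of its log2 CPM (counts per 1000000 counted reads) from sham of its day was regressed across genes on the mean TAC effect of the other days, so that a slope near 1 means a full TAC profile. The slope was 0.125 in TAC day 2 replicate 1 and 0.117 in TAC day 21 replicate 2, near the highest sham slope of 0.100, while the other TAC libraries had 0.529 to 1.83. The atrial myosin light chain Myl7 was above 30 CPM in 4 libraries, at 69.2 CPM in TAC day 7 replicate 1, 37.2 and 94.8 CPM in sham day 2 replicates 2 and 3, and 69.9 CPM in sham day 21 replicate 2. All 7 cardiomyocyte markers examined were detected, and the 5 haemoglobin genes looked for were listed at 0 in every library.

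All tropomyosin genes but Tpm1 and the troponin T, troponin I and tropomodulin genes carried the changes. Averaged over the 4 days, Tpm2, Tpm3 and Tpm4 were higher after TAC by 1.49-fold to 1.65-fold, and Tnni3, Tnnt2 and Tmod1 were lower, with Tnni3 at 0.718 of sham. Tnnc1, Tpm1 and Lmod2 did not pass the test. In this average 6 of the 9 genes had an adjusted p under 0.05 (edgeR's quasi-likelihood test, Benjamini-Hochberg over all genes), 3 of them higher and 3 lower. Of the 13816 genes tested 45.7% were called in this average, 24.4% higher and 21.4% lower.

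By day, 1 of the 9 genes passed at day 2, against 4.58% of all tested genes, and it was higher after TAC, as 3.73% of tested genes were. At day 4, 3 were higher and 1 was lower, against 24.6% of tested genes called, 14.4% higher and 10.1% lower. At day 7, 2 were higher and 3 were lower, against 23.2% of tested genes, 13.1% higher and 10.0% lower. At day 21 none passed by edgeR, DESeq2 or limma voom and 0 had an unadjusted p under 0.05, against 1.09% of tested genes called by edgeR and 17.4% at an unadjusted p under 0.05. Over the 36 combinations of gene and day, the 3 TAC libraries lay wholly above sham in 10, wholly below in 6 and overlapped sham in 20. Of all tested genes, 11.2%, 21.5%, 20.5% and 11.9% lay wholly above sham at days 2, 4, 7 and 21, and 11.2%, 19.6%, 19.4% and 10.5% wholly below.

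**Figure D1:**
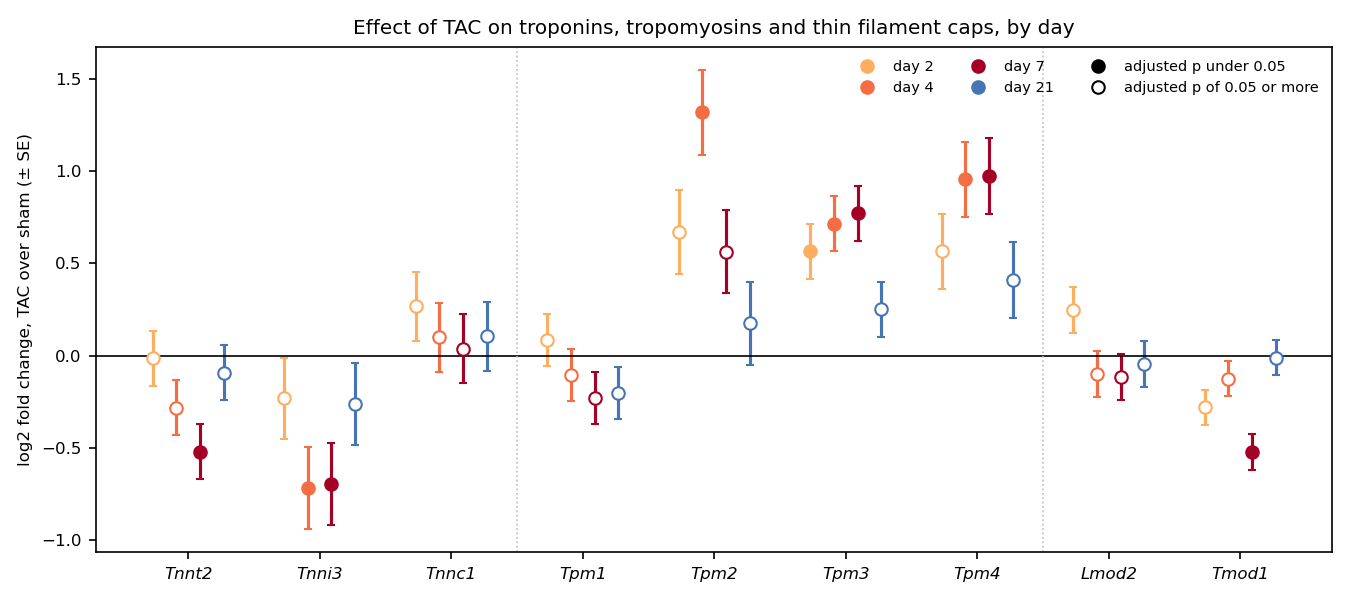
Log2 fold change of TAC over sham (y axis, ± SE from edgeR, 3 libraries per group) for each gene (x axis) and day (colour), with filled points where the adjusted p was under 0.05. The tropomyosin genes Tpm2, Tpm3 and Tpm4 lie above 0 at all 4 days, with the highest point at 1.32 for Tpm2 at day 4, and Tnni3 lies below 0 at all 4 days.

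Among the troponins, Tnni3, which encodes cardiac troponin I, had the lowest ratio of TAC to sham. At day 4 Tnni3 had 3339, 4144 and 2948 CPM (scaled by TMM, edgeR's correction for library composition) in TAC libraries, against 5913, 5945 and 5322 CPM in sham libraries. At day 7 it had 2098, 4276 and 3434 CPM in TAC libraries, against 5295, 4998 and 5579.7 CPM in sham libraries. All 3 TAC libraries lay below all 3 sham libraries at both days. Tnni3 fell by 0.72 ± 0.22 (SE) on the log2 scale at day 4 (edgeR adjusted p = 0.0233) and by 0.69 ± 0.22 at day 7 (edgeR adjusted p = 0.0302).

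Those calls were close to the threshold. At day 4 the edgeR adjusted p was 0.0576 and 0.0654 without sham replicates 1 and 2. It was 0.0664 and 0.121 without TAC replicates 1 and 3. Calls over all genes, 3394 with every library, were 2527, 2324, 2636 and 1402 in these settings. In the day 7 test the edgeR adjusted p was 0.0685, 0.0533 and 0.0900 without sham replicates 1, 2 and 3. It was 0.0642 without TAC replicate 3, and 0.175 without TAC replicate 1, where the log2 change was -0.45. In that order, calls over all genes at day 7 fell from 3201 to 2027, 2093, 1569, 1884 and 1270. TAC day 7 replicate 1, the lowest library of the day for Tnni3, is also the one with 69.2 CPM of Myl7, and the part of atrial tissue in its level was not tested. Averaged over the days, Tnni3 fell by 0.48 ± 0.11 on the log2 scale (edgeR adjusted p = 0.00161), and this call held with each of the 24 libraries left out in turn.

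At the first and the last day the TAC libraries spread on both sides of sham for Tnni3. At day 2 they had 5502, 3693 and 3399 CPM in TAC, against 4919.9, 4909.6 and 4967 CPM in sham. At day 21 they had 3991, 6103 and 3269 CPM in TAC, against 5329, 5366 and 5316 CPM in sham. The highest TAC value of each of these days belonged to one of the libraries whose profile was nearest to sham. The log2 differences were -0.23 ± 0.22 at day 2 and -0.26 ± 0.22 at day 21 (edgeR adjusted p = 0.600 and 0.571). Without both of those TAC libraries they were -0.48 and -0.55, with edgeR adjusted p = 0.0963 and 0.0853. This setting was chosen after seeing the data. With it, calls over all genes rose from 633 to 2154 at day 2 and from 151 to 994 at day 21.

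Tnnt2, which encodes cardiac troponin T, passed at 1 day. At day 7 Tnnt2 had 5396, 7846 and 6859.8 CPM in TAC libraries, against 9682, 9637 and 9539 CPM in sham libraries. The sham libraries lay close together and every TAC library was below them. Tnnt2 fell by 0.52 ± 0.15 on the log2 scale at day 7 (edgeR adjusted p = 0.0179), which became 0.0501 without sham replicate 3 and 0.109 without TAC replicate 1. At day 4 its TAC libraries, with 8829.6, 8357 and 7021 CPM, were also all below the sham libraries, with 10717, 9696 and 9016 CPM, but the log2 difference of -0.28 ± 0.15 did not pass (edgeR adjusted p = 0.173). At day 2 it had 10249, 7885 and 7389.9 CPM in TAC, against 8185, 8670.4 and 8952 CPM in sham. At day 21 it had 8151, 10638 and 7439 CPM in TAC, against 9248, 9574 and 9143 CPM in sham. The groups overlapped at days 2 and 21. Calls over all genes at day 7 went from 3201 to 1569 without sham replicate 3 and to 1270 without TAC replicate 1.

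Tnnc1, which encodes the calcium-binding troponin C of heart and slow skeletal muscle, did not pass at any day. At day 2 Tnnc1 had 1354, 974 and 1029.9 CPM in TAC libraries, against 910.5, 937 and 943 CPM in sham libraries. All 3 TAC libraries were above sham at that day, with a log2 difference of 0.27 ± 0.19 (edgeR adjusted p = 0.457). At day 4 it had 1181, 1351 and 1112 CPM in TAC, against 1315, 1085 and 1003 CPM in sham. Day 7 gave 759, 1466 and 1291 CPM in TAC, against 1225, 1092 and 1107 CPM in sham, so that the lowest and the highest library were both TAC. Day 21 gave 1221, 1618 and 1022 CPM in TAC, against 1137, 1296 and 1157 CPM in sham. The 95% interval of the fold change averaged over days ran from 0.954 to 1.25 (edgeR adjusted p = 0.280). Without TAC day 7 replicate 1 that average passed, at 0.19 on the log2 scale (edgeR adjusted p = 0.0464). Calls over all genes in the average were 6319 with every library and 5986 without that library.

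Set against troponin T of the same library, troponin C and troponin I counts parted. A ratio of counts of 2 genes within a library needs no scaling between libraries, but its size depends on the genes' lengths, so that only its difference between groups is read. Tnnc1 to Tnnt2 was 0.132, 0.123 and 0.139 in TAC libraries, against 0.111, 0.108 and 0.105 in sham libraries, at day 2. At day 4 it was 0.134, 0.162 and 0.158 in TAC, against 0.123, 0.112 and 0.111 in sham. Its day 7 values were 0.141, 0.187 and 0.188 in TAC, against 0.127, 0.113 and 0.116 in sham. The TAC libraries also lay above sham at day 21, with 0.150, 0.152 and 0.137 in TAC against 0.123, 0.135 and 0.127 in sham. The groups did not overlap on any of the 4 days, and of the other tested genes 0.746% had a ratio to Tnnt2 in TAC above sham without overlap on every day. The mean log2 difference was 0.35 and 1.25e-05 is the smallest p that the exact permutation test, two-sided with labels permuted within days over 160000 arrangements, can give (adjusted over the 6 ratios computed, 7.5e-05).

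Tnni3 to Tnnt2 went the other way. Its mean log2 difference over the 4 days was -0.28 (exact permutation test, two-sided, p = 0.00015, adjusted over 6 ratios 0.000225). At day 4 the ratio was 0.378, 0.496 and 0.420 in TAC, against 0.552, 0.613 and 0.590 in sham. At day 2 it was 0.537, 0.468 and 0.460 in TAC, against 0.601, 0.566 and 0.555 in sham. TAC lay below sham without overlap at these days, as did the ratio to Tnnt2 of 4.23% of other genes at day 4 and of 8.90% at day 2. At days 7 and 21 the groups overlapped.

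The promoters of Tnnt2 and Tnnc1 are shown because their proteins sit in the same complex while the ratio of their counts differed between TAC and sham. RefSeq's promoter table of GRCm38.p6 held 11 windows of 250 bases before an annotated start for the 9 genes, with 2 each for Tnnt2 and Tpm3. The letters GGAATG, on either strand, are those of the MCAT element, known as a site for TEAD factors in muscle gene promoters. They occurred in 4 of the 11 windows and in 12.64% of the 32851 windows of the table. The windows below lie on chromosome 1 at chr1:135836084-135836333 and on chromosome 14 at chr14:31208062-31208311, both on the plus strand. GGAATG or its reverse complement CATTCC is in capitals.
Tnnt2: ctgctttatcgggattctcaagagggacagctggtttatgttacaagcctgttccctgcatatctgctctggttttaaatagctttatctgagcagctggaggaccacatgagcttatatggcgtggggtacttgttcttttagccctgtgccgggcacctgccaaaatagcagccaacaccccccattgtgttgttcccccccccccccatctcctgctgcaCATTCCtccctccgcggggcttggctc
Tnnc1: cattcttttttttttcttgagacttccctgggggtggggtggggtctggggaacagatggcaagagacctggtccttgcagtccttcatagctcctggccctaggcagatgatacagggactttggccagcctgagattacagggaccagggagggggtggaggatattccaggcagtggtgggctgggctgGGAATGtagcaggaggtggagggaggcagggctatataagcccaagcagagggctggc

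The other windows with these letters were those of Tpm1 and Tmod1, and 30 bases around each match are shown for comparison with the pair above. They lie at chr9:67049252-67049281 on the minus strand for Tpm1 and at chr4:46039047-46039076 on the plus strand for Tmod1.
Tpm1: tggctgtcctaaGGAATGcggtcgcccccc
Tmod1: cagggaaccacaCATTCCcctgcctccggg

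Counted from the annotated start, the match began at position -27 in Tnnt2, -58 in Tnnc1, -56 in Tpm1 and -163 in Tmod1. The CArG box of serum response factor was searched as CCWWWWWWGG and the MEF2 site as YTAWWWWTAR (W, A or T, Y, C or T, R, A or G). On both strands these exact patterns occurred in 0 of the 11 windows and in 1.47% and 2.92% of all windows. Sites that depart from a pattern were not counted. The GATA letters AGATAA occurred in 2 windows, of Tnnt2 and Tpm3, against 9.99% of all, and CANNTG, the E-box, in 9 against 66.22%. The exact letters TATAAA occurred in 0 of the 11 and in 12.37% of all. The Tnnc1 window shown above holds TATATAAG, which a search for TATAAA does not match. These matches describe letters in a window and nothing about binding.

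The tropomyosins held the largest changes of the 9 genes. Tpm1, the main tropomyosin of adult heart muscle, did not pass at any day. At day 4 Tpm1 had 6783, 7020.5 and 5636 CPM in TAC libraries, against 7588, 7041 and 6294 CPM in sham libraries. Day 7 gave 4597, 6626 and 6155 CPM in TAC, against 7113, 6840.2 and 6448 CPM in sham. The groups overlapped on both days, as they did at day 2, with 6258, 5845 and 6131 CPM in TAC against 5676, 6323 and 5219.9 CPM in sham, and at day 21, with 5754, 7366 and 5163 CPM in TAC against 6836, 7643 and 6554 CPM in sham. The 95% interval of its average fold change ran from 0.834 to 1.02 (edgeR adjusted p = 0.196).

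Tpm2, the gene of beta-tropomyosin, known from slow skeletal and smooth muscle, had the largest single change. At day 4 Tpm2 had 58.3, 48.2 and 89.9 CPM in TAC libraries, against 34.2, 21.7 and 23.1 CPM in sham libraries, with no overlap. It rose by 1.32 ± 0.23 on the log2 scale, or 2.49-fold (edgeR adjusted p = 0.000679), and the call held without any one of the 6 libraries of that day. Day 2 gave 36.4, 51.2 and 56.9 CPM in TAC, against 29.4, 30.9 and 30.8 CPM in sham. At day 7 it had 74.0, 53.5 and 62.6 CPM in TAC, against 48.2, 42.1 and 38.5 CPM in sham. The TAC libraries were above sham at both days, yet the log2 differences of 0.67 ± 0.23 and 0.56 ± 0.22 did not pass (edgeR adjusted p = 0.0976 and 0.0726). Without TAC day 2 replicate 1 the day 2 difference was 0.83 and passed (edgeR adjusted p = 0.0236), and without TAC day 7 replicate 2 the day 7 difference was 0.67 and passed (edgeR adjusted p = 0.0421). Calls over all genes rose as well when these libraries were left out, from 633 to 1835 at day 2 and from 3201 to 4132 at day 7. At day 21 the groups overlapped, with 42.3, 33.3 and 55.2 CPM in TAC, against 43.2, 29.9 and 42.8 CPM in sham.

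Tpm3, which encodes slow muscle and cytoskeletal tropomyosins, was the only one of the 9 to pass at day 2. It was also the only one of them whose TAC libraries lay above sham on all 4 days. On single days, 11.2%, 21.5%, 20.5% and 11.9% of all tested genes lay wholly above sham at days 2, 4, 7 and 21. The share of genes that did so on all 4 days was not computed. At day 2 Tpm3 had 69.1, 94.2 and 125 CPM in TAC libraries, against 63.3, 64.5 and 67.6 CPM in sham libraries. Day 4 gave 103, 97.0 and 138 CPM in TAC, against 68.9, 71.9 and 65.4 CPM in sham. Day 7 gave 116, 106 and 129 CPM in TAC, against 71.8, 68.7 and 64.9 CPM in sham. The lowest TAC library of day 2, replicate 1, was 1 of the 2 nearest to sham, and its value exceeded the highest sham value by less than 2 CPM. At day 21 Tpm3 had 85.6, 76.0 and 85.0 CPM in TAC, against 66.4, 68.7 and 72.2 CPM in sham.

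Tpm3 rose by 0.56 ± 0.15 at day 2, 0.71 ± 0.15 at day 4 and 0.77 ± 0.15 at day 7 on the log2 scale (edgeR adjusted p = 0.0327, 0.00234 and 0.00157). The day 21 difference was 0.25 ± 0.15 (edgeR adjusted p = 0.400). At day 2 the adjusted p was 0.000789 without TAC replicate 1, but 0.0692 and 0.366 without TAC replicates 2 and 3, and 0.110, 0.121 and 0.0825 without sham replicates 1, 2 and 3. Calls over all genes, 633 with every library, were 1835, 352 and 12 without TAC replicates 1, 2 and 3. Without sham replicates 1, 2 and 3 those calls were 112, 12 and 96. The log2 difference without TAC day 2 replicate 3, the highest library, was 0.33. At days 4 and 7 the call held without any one of the 6 libraries. Tpm3 has near-identical processed copies in the mouse genome, and the labels do not say how the authors' counting treated reads shared with them, so that its level is uncertain.

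Tpm4, a cytoskeletal tropomyosin gene of non-muscle and smooth muscle cells, rose at days 4 and 7. At day 4 Tpm4 had 239, 205 and 372 CPM in TAC libraries, against 142, 147 and 131 CPM in sham libraries. Day 7 gave 245, 247 and 311 CPM in TAC, against 132, 149 and 128 CPM in sham. No TAC library reached down to sham at these days, and the rises were 0.96 ± 0.20 and 0.97 ± 0.20 on the log2 scale, 1.94-fold and 1.96-fold (edgeR adjusted p = 0.00269 and 0.00280). Both calls held without any one of the 6 libraries of the day. Day 2 gave 144, 201 and 289 CPM in TAC, against 146, 146 and 136 CPM in sham. Day 21 gave 175, 146 and 191 CPM in TAC, against 151, 121 and 113 CPM in sham. The groups overlapped at both days through replicate 1 of TAC day 2 and replicate 2 of TAC day 21. The day 2 log2 difference was 0.57 ± 0.20 (edgeR adjusted p = 0.120), and without TAC day 2 replicate 1 it was 0.78 and passed (edgeR adjusted p = 0.0113). Leaving out that library raised the day 2 calls over all genes from 633 to 1835. The day 21 difference was 0.41 ± 0.20 (edgeR adjusted p = 0.308). Without both TAC libraries nearest to sham, a setting chosen after seeing the data, it was 0.52 (edgeR adjusted p = 0.101). Day 21 calls over all genes rose from 151 to 994 in that setting.

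**Figure D2:**
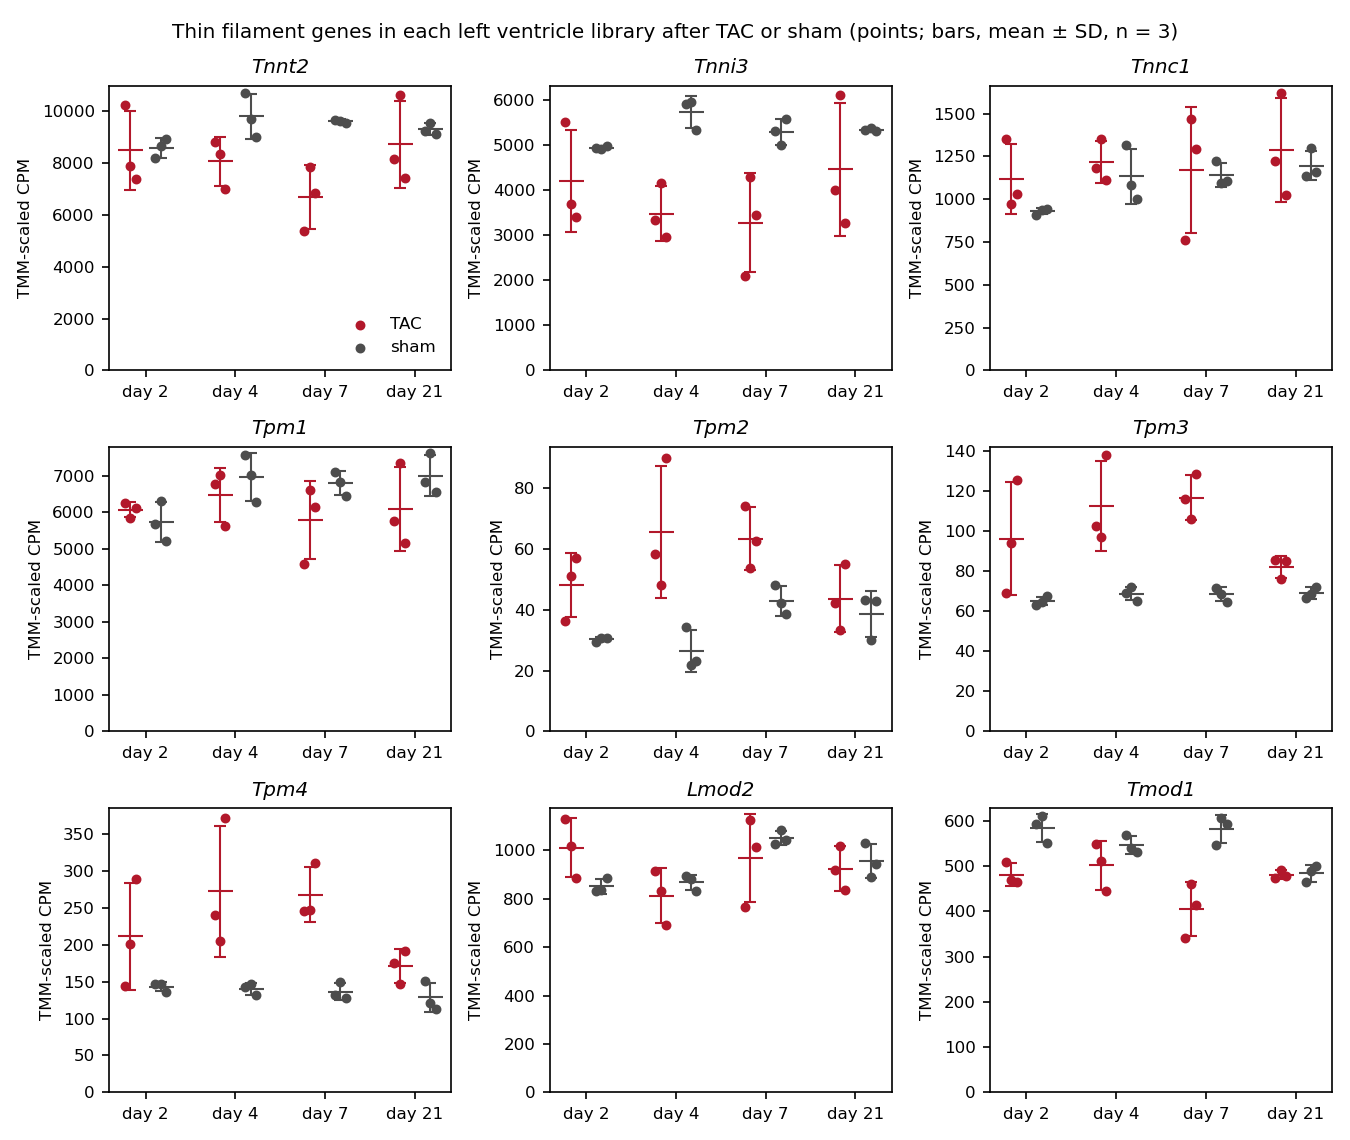
TMM-scaled CPM (y axis, linear from 0) of each gene in every library by day (x axis), with TAC left of sham in each pair, points for libraries and bars for mean ± SD of 3. Tpm3 and Tpm4 stand above sham without overlap at days 4 and 7, where Tpm4 reached 372 CPM in TAC and at most 149 CPM in sham, and Tnni3 stands below sham on the same days.

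Set against Tpm1 of the same library, all 3 minor tropomyosins were higher in TAC on average over the days. The ratio of Tpm4 to Tpm1 counts at day 7 was 0.0533, 0.0373 and 0.0505 in TAC libraries, against 0.0186, 0.0218 and 0.0198 in sham libraries. Over the 4 days its mean log2 difference was 0.82 (exact permutation test, two-sided, p = 0.0001, adjusted over 6 ratios 0.0002). For Tpm3 to Tpm1 it was 0.68 (the same exact test, p = 0.0001, adjusted 0.0002), and for Tpm2 to Tpm1 0.79 (the same exact test, p = 0.0003875, adjusted 0.000465). All 3 ratios lay above sham without overlap at days 4 and 7, as did the ratio to Tpm1 of 20.7% of other genes at day 4 and of 28.9% at day 7, and all 3 overlapped sham at days 2 and 21.

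On the authors' RPKM (reads per kilobase and 1000000 reads), which can be compared between genes, the tropomyosin RNA stayed almost wholly Tpm1. These shares rest on the authors' gene lengths. Counts and RPKM together imply a median of 985 bases for Tpm1, and 2087, 2194 and 2272 for Tpm2, Tpm3 and Tpm4. Between libraries the implied length of Tpm2 ran from 1848 to 2439 bases. Tpm2, Tpm3 and Tpm4 together made up 3.10% ± 1.36 (SD, n = 3) of the summed tropomyosin RPKM in TAC at day 4, against 1.46% ± 0.04 in sham. At day 7 the share was 3.54% ± 0.64 in TAC, against 1.62% ± 0.09 in sham. The libraries did not overlap on either day, with 2.18% the lowest TAC value and 1.51% the highest sham value at day 4, and 2.89% and 1.72% at day 7. At day 2 it was 2.56% ± 0.81 in TAC and 1.75% ± 0.13 in sham, and at day 21 2.19% ± 0.53 in TAC and 1.51% ± 0.20 in sham, with overlap at both days.

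**Figure D3:**
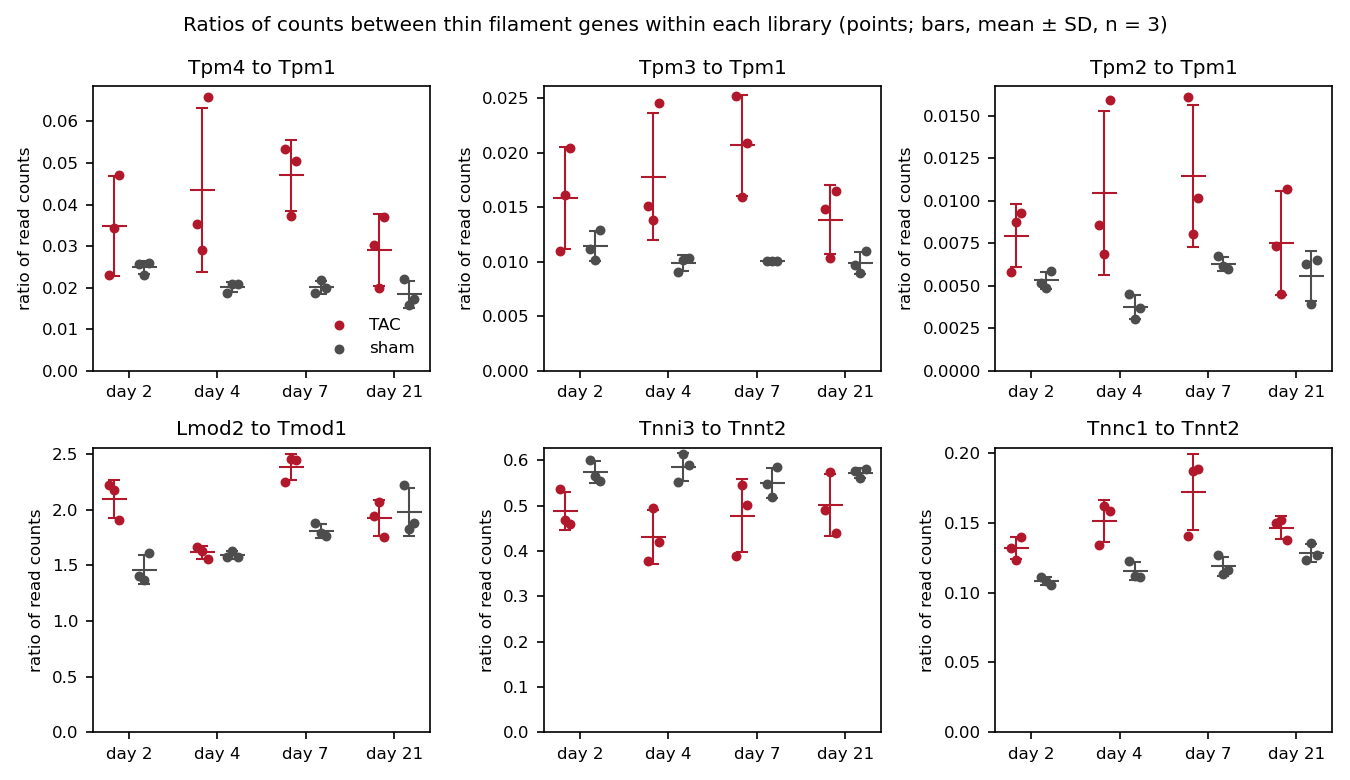
Ratio of read counts of 2 genes within each library (y axis, linear from 0) by day (x axis), with TAC left of sham, points for libraries and bars for mean ± SD of 3. Tnnc1 to Tnnt2 is above sham without overlap at every day, and the 3 tropomyosin ratios are above sham without overlap at days 4 and 7.

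Tmod1, which encodes the tropomodulin that caps the pointed end of the filament, fell at day 7. At that day Tmod1 had 341, 459 and 414 CPM in TAC libraries, against 547, 606 and 592 CPM in sham libraries, with no overlap. It fell by 0.52 ± 0.10 on the log2 scale, to 0.696 of sham (edgeR adjusted p = 0.000990), and the call held without any one of the 6 libraries of the day. At day 2 it had 509, 469 and 465 CPM in TAC, against 592, 609 and 551 CPM in sham. The TAC libraries were again all below sham, but the log2 difference of -0.28 ± 0.10 did not pass (edgeR adjusted p = 0.0991). It passed without TAC replicate 1, at -0.32 (edgeR adjusted p = 0.0451), with DESeq2 (adjusted p = 0.0462) and with library size alone as scaling (edgeR adjusted p = 0.0494). In these settings, in that order, day 2 calls over all genes went from 633 to 1835, 878 and 585. Day 4 gave 549, 509.9 and 444 CPM in TAC, against 568, 540.3 and 530.2 CPM in sham. At day 21 it had 473, 492 and 477 CPM in TAC, against 464, 488 and 501 CPM in sham. The groups overlapped at both of these days, and the day 21 difference of -0.01 ± 0.10 turned to 0.00 with library size alone as scaling.

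Lmod2, which encodes the heart's leiomodin, a protein that lengthens the filament at the same end, did not pass at any day. At day 2 Lmod2 had 1131, 1018 and 885 CPM in TAC libraries, against 830.5, 836 and 888 CPM in sham libraries. At day 4 it had 915, 832 and 691 CPM in TAC, against 893, 881 and 834 CPM in sham. At day 7 it had 768, 1126 and 1014 CPM in TAC, against 1027, 1082 and 1043 CPM in sham. The groups overlapped at all 3 of these days, and also at day 21, with 919, 1019 and 835 CPM in TAC against 1030.5, 892 and 944 CPM in sham. The 95% interval of its average fold change, 0.912 to 1.09, holds values on both sides of 1 (edgeR adjusted p = 0.969).

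The ratio of Lmod2 to Tmod1 differed at the days when Tmod1 lay below sham. The ratio at day 2 was 2.22, 2.17 and 1.91 in TAC, against 1.40, 1.37 and 1.61 in sham. The ratio at day 7 was 2.25, 2.45 and 2.45 in TAC, against 1.88, 1.79 and 1.76 in sham. Both days had no overlap, as had the ratio to Tmod1 of 40.8% of other genes at day 2 and of 65.9% at day 7, all above sham. At days 4 and 21 the groups overlapped, and the mean log2 difference over the days was 0.23 (exact permutation test, two-sided, p = 0.004, adjusted over 6 ratios 0.004).

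None of the 9 genes passed the test of whether the effect of TAC differed over the 4 days (51 of all tested genes, or 0.369%, did). Tmod1 had the smallest p of the 9 in it (edgeR adjusted p = 0.220), followed by Tpm2 (edgeR adjusted p = 0.276). For Tmod1 the effect of day 7 minus that of day 4 was -0.40 ± 0.13 on the log2 scale, and that of day 21 minus that of day 7 was 0.51 ± 0.13 (edgeR adjusted p = 0.443 and 0.174). DESeq2 called Tmod1 in the test over all days (adjusted p = 0.0396) and for day 21 against day 7 (adjusted p = 0.0276), tests in which it called 294 and 71 of all tested genes, against 51 and 9 by edgeR. For Tpm2 the effect of day 7 minus that of day 4 was -0.76 ± 0.32 (edgeR adjusted p = 0.609). In single differences between days edgeR called 0 of the 9 genes. At an unadjusted p under 0.05 it had 2 for day 7 against day 4 (7.61% of all genes), 2 for day 21 against day 7 (11.4% of all genes) and 0 for day 4 and day 21 against day 2 (8.79% and 8.27%). The calls over all tested genes were 0.0507% for day 7 against day 4, 0.0651% for day 21 against day 7, 0.0145% for day 21 against day 2 and 0 for day 4 against day 2.

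The sham libraries gave the level that the effects start from. None of the 9 genes passed the test among the 4 sham groups, in which 0.680% of all genes did. At an unadjusted p under 0.05 edgeR had 2 of them, against 9.42% of all genes. These were Tpm2 (edgeR adjusted p = 0.416) and Tmod1 (edgeR adjusted p = 0.472), and DESeq2 and limma voom called 0. By group mean, sham Tpm2 was lowest at day 4, the day of its largest TAC difference.

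Per length, the 9 genes spanned more than 2 orders of magnitude. Median RPKM over 12 libraries was 8586 in TAC and 10167 in sham for Tnnt2, 5906 in TAC and 8643 in sham for Tnni3, and 6214 in TAC and 6717 in sham for Tpm1. Tnnc1 followed with 2498 in TAC and 2324 in sham, and Lmod2 with 482 in TAC and 469 in sham. The lowest were Tmod1, with 91.0 in TAC and 104 in sham, Tpm4, with 94.7 in TAC and 61.2 in sham, Tpm3, with 44.4 in TAC and 31.0 in sham, and Tpm2, with 25.3 in TAC and 14.9 in sham. In sham the ranges of neighbours in this order were separate except for Tnnt2 and Tnni3. In TAC they overlapped for Tnnt2 with Tpm1, Tpm1 with Tnni3, Tpm4 with Tmod1 and Tpm3 with Tpm2, and Tpm4 had a higher median than Tmod1.

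**Figure D4:**
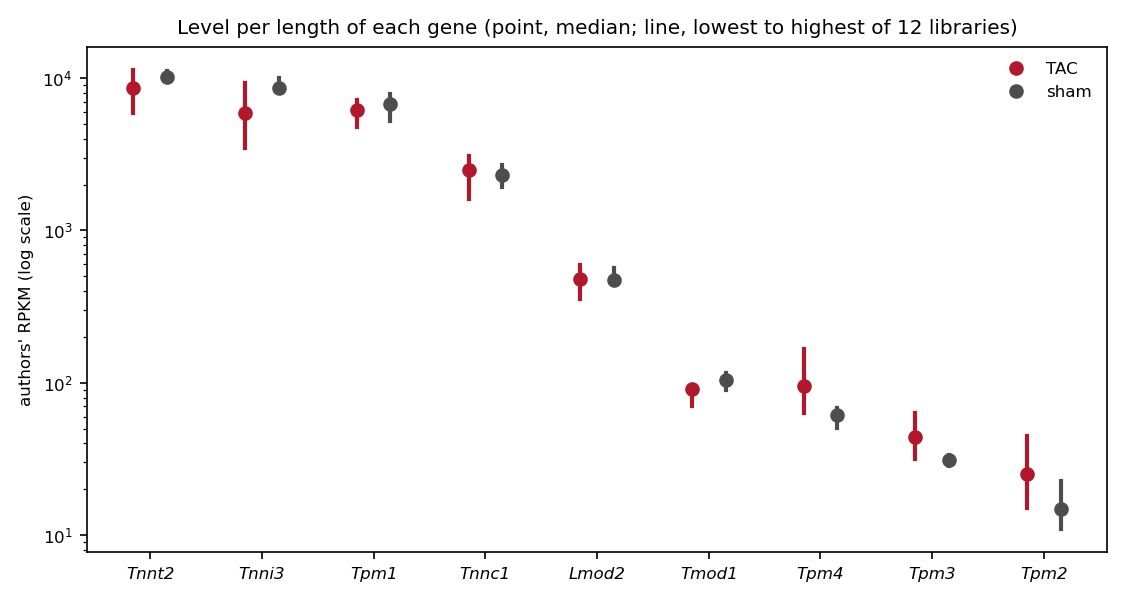
Authors' RPKM (y axis, log scale) of each gene (x axis, in the order of the sham medians), with TAC left of sham, points for medians and lines from the lowest to the highest of 12 libraries. Tpm4 has a median of 94.7 in TAC against 61.2 in sham and reaches the level of Tmod1 in TAC, while Tnni3 spans a wider range in TAC than in sham.

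Other genes of the same families were read from lists. Of 14 other troponin, tropomodulin, leiomodin and capping protein genes, 12 passed the filter, and 1, 3, 3 and 0 of them were higher after TAC at days 2, 4, 7 and 21, with 0 lower. Of all tested genes 3.73%, 14.4% and 13.1% were higher and 0.854%, 10.1% and 10.0% lower at days 2, 4 and 7. At day 21, 1.09% of all tested genes were called. Capg, a protein that caps the barbed end and is known from macrophages, rose by 1.51 ± 0.27, 1.63 ± 0.28 and 1.13 ± 0.28 on the log2 scale at days 2, 4 and 7 (edgeR adjusted p = 0.00769, 0.000613 and 0.00723). Tmod3, the tropomodulin found in most cell types, rose by 0.54 ± 0.09 at day 7 (edgeR adjusted p = 0.000354), the day at which Tmod1 fell. Capza1, a subunit of the barbed-end capping protein, rose by 0.51 ± 0.18 at day 4 and 0.66 ± 0.18 at day 7 (edgeR adjusted p = 0.0406 and 0.0143). Tnnt3, fast skeletal troponin T, rose by 2.39 ± 0.57 at day 4 (edgeR adjusted p = 0.00517), on 31 to 85 reads per TAC library. In the average over days Lmod3 and Tmod4, named after their values were seen, fell by 0.24 ± 0.09 and 0.71 ± 0.17 (edgeR adjusted p = 0.0276 and 0.00183).

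Of 20 actin, nebulin family and filament assembly genes, 7, 9, 7 and 1 were higher at days 2, 4, 7 and 21, and 0, 1, 3 and 0 were lower. Their median log2 fold change was 0.31, 0.28, 0.24 and 0.19, with all tested genes between -0.01 and 0.01. The shares of all tested genes called were 3.73%, 14.4% and 13.1% higher and 0.854%, 10.1% and 10.0% lower at days 2, 4 and 7. At day 21 the share called was 1.09%. Acta1, skeletal alpha-actin, rose by 2.24 ± 0.43, 3.62 ± 0.45, 2.39 ± 0.43 and 2.67 ± 0.43 at the 4 days (edgeR adjusted p = 0.00892, 0.000170, 0.000887 and 0.00898). Xirp2, an actin-binding protein of the intercalated disc, rose by 1.26 ± 0.29, 1.38 ± 0.29 and 0.94 ± 0.29 at days 2, 4 and 7 (edgeR adjusted p = 0.0189, 0.00266 and 0.0251). The cytoskeletal actin gene Actb rose by 0.94 ± 0.20 and cofilin 1, Cfl1, which severs actin filaments, by 0.90 ± 0.20 at day 7 (edgeR adjusted p = 0.00299 and 0.00368). Pfn1, profilin, which binds actin monomers, rose by 0.63 ± 0.10 at day 2 and 0.52 ± 0.10 at day 4 (edgeR adjusted p = 0.00579 and 0.00157). Against that direction, Nebl, the heart's nebulette, Fhod3, a formin of heart muscle, and Cap2, a cyclase-associated protein of heart and skeletal muscle, fell by 0.35 ± 0.11, 0.50 ± 0.14 and 0.38 ± 0.08 at day 7 (edgeR adjusted p = 0.0298, 0.0137 and 0.00435).

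Of 9 thick filament and titin genes, 1 was higher at each of days 2, 4 and 7, and 2 were lower at day 4. Among all tested genes 3.73%, 14.4% and 13.1% were higher at those days, and 10.1% were lower at day 4. Myh7, the slow myosin heavy chain, rose by 3.88 ± 0.73, 2.78 ± 0.69 and 3.15 ± 0.70 on the log2 scale at days 2, 4 and 7 (edgeR adjusted p = 0.00822, 0.00710 and 0.00409). The ventricular light chains Myl2 and Myl3 fell by 0.63 ± 0.21 and 0.56 ± 0.19 at day 4 (edgeR adjusted p = 0.0335 and 0.0347), the first day at which Tnni3 passed.

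Markers of several cell types were also called at days 4 and 7, in both directions and not all at both days. Of all tested genes 14.4% were called higher and 10.1% lower at day 4, and 13.1% higher and 10.0% lower at day 7. In whole tissue, fewer cells of a type and less RNA per cell cannot be told apart. The marker sums here and below are in CPM by library size alone, without the TMM scaling used above for Tnni3 and the other thin filament genes. TMM factors at day 7 were 0.974, 0.975 and 0.958 in sham and 1.14, 0.995 and 1.06 in TAC. TMM scaling would thus raise day 7 sums in sham relative to TAC, and overlap after it was not computed. The summed level of 7 cardiomyocyte markers was 140303 to 163814 CPM in TAC and 161939 to 175001 CPM in sham at day 4. At day 7 it was 134001 to 171385 CPM in TAC and 170841 to 172295 CPM in sham. At these days 3 and 2 of the 7 were lower and 0 higher. Of 6 fibroblast markers 4 were higher at each of these days (Col1a1, Col1a2, Col3a1 and Postn, but not Dcn or Pdgfra). Sums of the 6 were 4128 to 9006 CPM in TAC against 1224 to 1554 CPM in sham at day 4. At day 7 these sums were 1830.1 to 10021 CPM in TAC against 1353 to 1751 CPM in sham. Macrophage markers were higher for 5 of 5 measured at day 4, with sums of 432 to 606 CPM in TAC against 172 to 200.2 CPM in sham, and for 4 of 5 at day 7, with 233 to 439 CPM in TAC against 180.1 to 189 CPM in sham.

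Of 7 smooth muscle markers 4 were higher at day 4 (Acta2, Cnn1, Myl9 and Tagln, but not Myh11, Lmod1 or Smtn) and 0 at day 7. Sums of the 7 were 602 to 813 CPM in TAC against 398 to 478 CPM in sham at day 4. At day 7 these sums were 567 to 917 CPM in TAC against 519.8 to 623 CPM in sham. Tpm2 passed at day 4, and at day 7 its TAC libraries still lay above sham without passing (edgeR adjusted p = 0.0726). The difference between its effects at these days did not pass (edgeR adjusted p = 0.609). Of 5 endothelial markers 3 were lower at day 2 and 2 at day 4, and 2 were higher at day 7. Skeletal muscle markers summed to at most 8.03 CPM in any library, and 1 of the 3 tested, Tnnt3, was called, at day 4. At day 2, where Tpm3 passed, 1 of 5 macrophage markers (Cd68) and 1 of 7 smooth muscle markers (Cnn1) were higher. None of the 6 fibroblast or 7 cardiomyocyte markers passed, and Cnn1 had 8 to 24 reads per sham library. Of all tested genes 3.73% were higher and 0.854% lower at that day. In the average over days 4 smooth muscle markers were higher and 1 was lower. The part of these cell types in the levels of the 9 genes was not tested.

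The log2 CPM of the 9 genes was also compared over the 24 libraries, which share operation and day, so that the correlations are descriptions. Tpm3 and Tpm4 had r = 0.96, Tpm2 had r = 0.83 with Tpm3 and 0.80 with Tpm4, and Tnnt2 and Tnni3 had r = 0.93. After each group's mean was removed, Tpm3 and Tpm4 had r = 0.87 and Tnnt2 and Tnni3 had r = 0.92. Tnnc1 had r = 0.42 with Tnni3 and 0.52 with Tnnt2, and 0.93 and 0.90 after removing the group means, so that within a group the libraries high in 1 troponin were high in the others. Tpm1 had r = -0.34 to -0.39 with the other tropomyosins, but 0.76 with Tnnt2, 0.71 with Tnnc1 and 0.69 with Tnni3, and 0.81, 0.87 and 0.79 with these troponins after removing the group means. Lmod2 had r = 0.47 with Tnnt2, and 0.88 after removing them.

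Among the 9307 genes whose log2 CPM averaged 3 or more, those most like each member over the 24 libraries differed by set. For Tnni3 they were Etfb, Uqcrc1 and Cox8b, with r = 0.99, 0.99 and 0.98, and for Tnnt2 Lmo7, Atp5h and Atp5d, with r = 0.95, 0.94 and 0.94. For Tpm3 they were Tagln2, Clic1 and Anxa2, with r = 0.98, 0.97 and 0.97, and for Tpm4 Clic1, Tagln2 and Prelid1, with r = 0.96 each. For Tpm2 they were Flna, Gas2l3 and Kalrn, with r = 0.94, 0.91 and 0.91. For Tmod1 they were Dctn6, Gatc and Acot2, with r = 0.92, 0.91 and 0.91. The likeness was lower for Tpm1 (Tsc22d4, Map7d1 and Vti1b, r = 0.88, 0.87 and 0.85), Tnnc1 (Rpl38, Cenpb and Hcfc1r1, r = 0.83, 0.80 and 0.80) and Lmod2 (Tcap, Rbm24 and Usp2, r = 0.82, 0.81 and 0.80).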

How the data were processed

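Left ventricle RNA of 24 libraries was sequenced on an Illumina NextSeq500 from NuGEN Ovation libraries, per the labels' protocols. The authors deposited raw read counts per gene symbol and RPKM values of their own. TopHat, DESeq and the build hg19 are named in the submitters' processing notes, without versions. The last is a human build. Not given in the sources used here were the mouse build, annotation, counting tool and strand setting. Libraries held 10.7 to 17.6 M counts (M, 1000000), and replicates differed beyond counting noise, with a chi-square per degree of freedom of 3.54 to 59.3. 0 value columns were left unused.

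In R 4.3.3, edgeR 4.0.16 fitted 8 group means to the counts of 13816 genes kept by filterByExpr, with TMM scaling. Quasi-likelihood tests were two-sided and adjusted by Benjamini-Hochberg over all genes, with a threshold of 0.05. An SE is the log2 change over the square root of F. The test was tried on simulated data. Ratios were tested by exact permutation within days. Alternatives used DESeq2 1.42.0, limma 3.58.1, other scaling, filters, RPKM and left-out libraries. From each list the text names at most 5 genes, those with the smallest average p among genes called at a day, and any called against the list. The 9 genes and all lists were chosen with earlier results of these data known.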

Additional observations from a re-analysis of the deposited data

How the results depend on the processing

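Of 10 calls at single days, 6 held under every alternative and left-out library: Tpm2 at day 4, Tpm3 and Tpm4 at days 4 and 7, and Tmod1 at day 7. Of 12 called averages and ratios, 11 held. The exception was the average of Tnnt2, with an adjusted p of 0.121 without the libraries above 30 CPM of Myl7 and 0.253 on unfiltered RPKM. No called result changed direction.

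At day 2 the main count of 1 gene called became 2 with library size alone and with DESeq2. It became 0 with limma voom, the 6 libraries of the day alone, each of 3 RPKM settings (pseudocount 1, 0.1, and 1 with no filter) and without the Myl7 libraries, and 4 without the 2 TAC libraries nearest to sham, a setting chosen after seeing the data. Calls over all genes at day 2 moved too, from 633 to 585 with library size alone, 878 with DESeq2, 292 with limma voom, 0 with the day alone, 80 to 256 on RPKM, 0 without the Myl7 libraries and 2154 without the 2 TAC libraries. Leaving out the Myl7 libraries left 1 sham library at day 2, which is assumed to vary like the other groups. The count of the 9 genes ranged from 0 to 4 with single libraries left out. At day 7 the count of 5 became 3 on unfiltered RPKM and 4 with the 6 libraries of the day alone. It became 6 with library size alone and without the 2 TAC libraries nearest to sham. With single libraries left out it ranged from 3 to 6. Calls over all genes at day 7 moved from 3201 to 2722 on unfiltered RPKM, 2472 with the day alone and 3450 with library size alone. They were 3939 without those 2 TAC libraries and 1270 to 4132 with single libraries left out. Without the Myl7 libraries the day 7 log2 differences were -0.46 for Tnni3 and -0.39 for Tnnt2, against -0.69 and -0.52 with all libraries. DESeq2 called 1 gene, Tmod1, for day 21 against day 7 and for the effect over days, where edgeR called 0 of the 9. Library size alone moved the median log2 change of all genes to 0.14 at day 7, from 0.00 with TMM.

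Sign changes were among uncalled log2 differences near 0. Library size alone gave 0.0075 for Tnnt2 at day 2, 0.0067 for Lmod2 at day 7, 0.0014 for Tmod1 at day 21 and 0.052 for the Lmod2 average. Without the Myl7 libraries Tnnt2 at day 2 was 0.056, Lmod2 at day 7 0.026 and the Lmod2 average 0.029. The Lmod2 average was 0.0018 with no filter and 0.0014 with the stricter filter. Tnnc1 at day 7 was -0.0069 with limma voom and -0.034 on RPKM in all 3 settings, and Tnnc1 at day 21 was -0.086 without the 2 TAC libraries nearest to sham. With single libraries left out, the range was -0.17 to 0.076 for Tnnt2 at day 2, -0.26 to 0.012 for Tnnt2 at day 21, -0.15 to 0.27 for Tnnc1 at day 7, -0.093 to 0.25 for Tnnc1 at day 21 and -0.033 to 0.33 for Tpm2 at day 21. For Lmod2 it was -0.19 to 0.0092 at day 4, -0.23 to 0.027 at day 7, -0.12 to 0.021 at day 21 and -0.033 to 0.035 in the average, and for Tmod1 at day 21 -0.041 to 0.014. The cause was not tested.

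With the replicate block the counts were 1, 4, 5 and 0 at days 2, 4, 7 and 21 and 6 in the average, and it changed no call. Calls over all genes were 657, 3498, 3223 and 152 at those days and 6282 in the average. Without the block they were 633, 3394, 3201, 151 and 6319. No pairing by replicate number was seen: deviations of same-numbered libraries correlated at -0.15 to 0.14, with 1 of 12 pairs above 0.1. Differently numbered libraries correlated at -0.27 to 0.21. With so few libraries per group, this measure cannot show that a pairing was absent. Whether depth or the spread between libraries limited the smaller differences was not tested.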
